A study of Mus musculus with 6 samples.

Results

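The 10 genes described here form a group of imprinted growth genes: Igf2, H19, Cdkn1c, Dlk1, Meg3, Grb10, Plagl1, Mest, Ndn and Slc38a4. They were taken by name as 10 of the 13341 rows of the deposited expression table. All 10 passed the filter on low values, some only through the group where they were high. They were chosen by their differences in normalized count between the groups of these same libraries, which were already known, so each difference is given below as a description, with no p-value for any of the 10. The cells were hepatic stellate cells from mouse liver, the vitamin A-storing pericytes that turn into matrix-producing myofibroblasts when activated. One group of 3 libraries carried the label wild type (WT1 to WT3, together WT) and the other, also of 3, the label Nbr1 knock-out (KO1 to KO3, together KO). Nbr1 encodes an autophagy cargo receptor, and no other allele, agent or transgene is named for either group. Both were kept for 4 days in medium with 10% serum and no treatment. Strain, age, sex, the kind of knock-out and the way the cells were obtained are not given in the sources used here.

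An imprinted gene is transcribed mainly from the copy inherited from 1 parent, because DNA methylation laid down in the egg or sperm marks the parental copies. Many imprinted genes act on growth before birth, when they are abundant in liver and mesenchyme, and most of them are turned down after birth. In general, paternally expressed members such as Igf2, Dlk1, Plagl1 and Mest are linked to more growth and maternally expressed members such as H19, Cdkn1c and Grb10 to less. Several are called an imprinted gene network because their levels tend to move together, and the transcription factor Plagl1 is placed near its centre. Total RNA levels, as measured here, do not tell the maternal from the paternal copy.

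The libraries held 1508518 to 2383879 reads. Values are normalized counts, meaning reads scaled by the authors to a common library size, and 1 read was worth 0.8398 to 1.334 of them. Each transcript was read at its 3' end, so a value does not grow with transcript length. By their deviations from the group means, the libraries also fell into a pair of sets that cross the labels. These were WT1 with KO1 and KO3 (set A), and WT2 and WT3 with KO2 (set B). The deviations of WT1 correlated at 0.45 and 0.70 with those of KO1 and KO3, and those of WT2 and WT3 at 0.70 each with KO2. In level, WT1 correlated at 0.857 and 0.856 with the other WT libraries and at 0.875 and 0.888 with KO1 and KO3. KO2, though, correlated more with KO1 and KO3 (0.946 and 0.924) than with WT2 and WT3 (0.901 and 0.903). The Nbr1 level was 204.1, 278.0 and 288.7 in WT and 203.7, 188.2 and 175.6 in KO (limma, adjusted p = 0.22), and reads from the 3' end do not check a deletion placed elsewhere in the gene. Sqstm1, which encodes the related receptor p62, had 24.0, 10.9 and 12.7 against 817.4, 644.6 and 859.1, although p62 is widely made in mouse tissues. Neither gene checks the labels, so which cells lacked Nbr1 is in doubt, and every direction below (higher, lower, rose or fell) is between the labels as given. Of 13 stellate cell markers, 9 were analysed and all 9 had a higher mean in KO, 8 of them past the limma threshold (adjusted p under 0.05, reached upward by 4.67% of all tested genes), with summed levels of 5544.7 to 6255.7 against 14058.1 to 16348.6. The defining markers Des, Lrat, Reln and Hgf had no row among those deposited, so they could not be analysed here.

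All 10 genes had groups that did not overlap, 8 higher and 2 lower in KO, where 30.1% of all 10540 tested genes had no overlap (16.5% higher and 13.6% lower). Of the 10, 9 passed the limma test over all genes (adjusted p under 0.05), where 6.92% of all tested genes did. Nothing is read from these shares, since the same contrast chose the genes. Cdkn1c, Dlk1, Meg3 and Slc38a4 were under 10 normalized counts in each WT library, so they passed the filter only through KO. The 8 higher genes were Igf2, Cdkn1c, Dlk1, Meg3, Grb10, Plagl1, Ndn and Slc38a4, all past the threshold (background 4.67%). The lower ones were H19, past the threshold, and Mest, not past it (background 2.25%). The median log2 change, KO over WT, was 1.99 over the 10 genes and -0.01 over all tested genes. In these bulk samples, fewer cells of a type and less RNA per cell cannot be told apart.

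**Figure D1:**
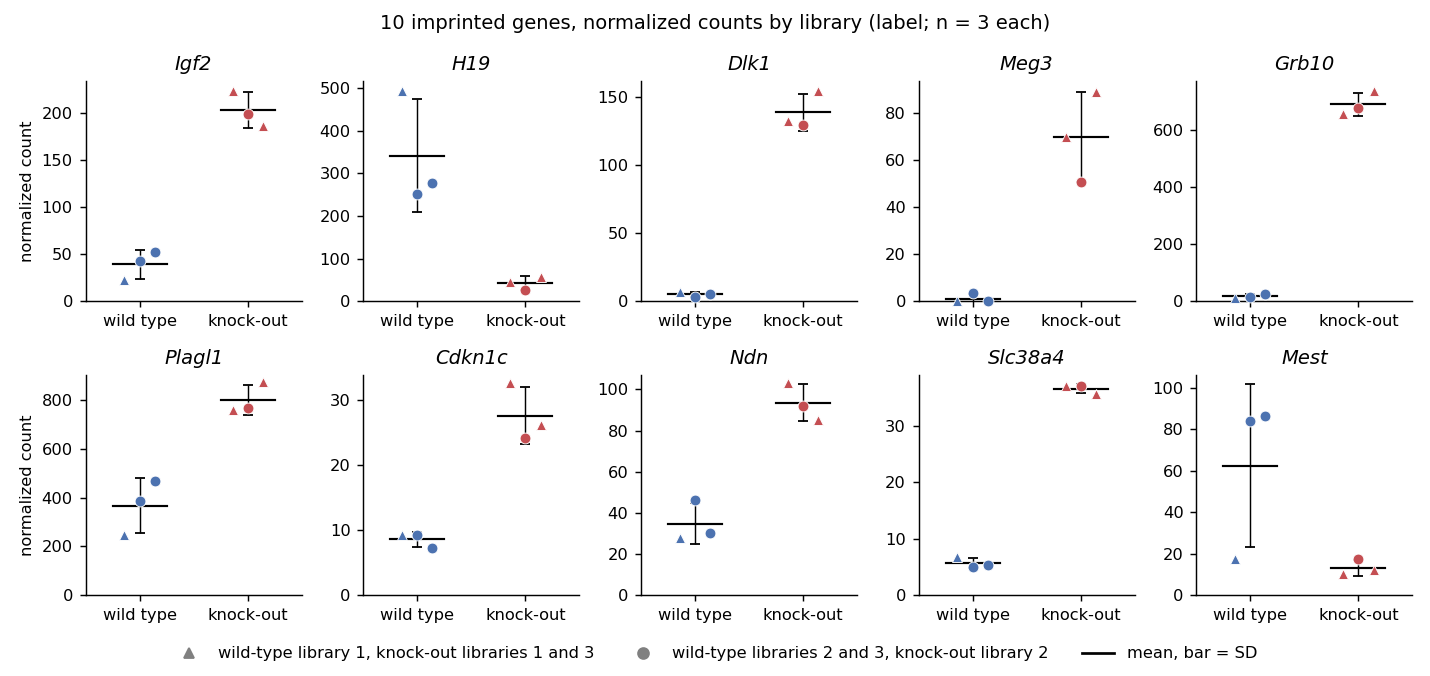
Normalized counts of the 10 imprinted growth genes in each of the 6 libraries, 1 panel per gene with its own linear axis from 0; points are libraries (triangles for set A, circles for set B), horizontal lines are group means and vertical bars SD (n = 3 per label). H19 and Mest are the panels in which the WT points lie above the KO points, and in each panel the groups do not overlap.

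Igf2 and H19 lie next to each other on chromosome 7 and share enhancers, and a methylation-sensitive insulator between them lets the paternal copy make Igf2 and the maternal copy make H19. Igf2 encodes insulin-like growth factor 2, a fetal growth factor of liver and mesenchyme. It stood at 22.7, 42.8 and 52.7 normalized counts in WT1, WT2 and WT3 and at 223.6, 198.5 and 186.3 in KO1, KO2 and KO3. The lowest WT value was that of WT1, and every KO library was above every WT one. The mean was 5.15-fold higher in KO, at 202.8 ± 19 against 39.4 ± 15.3 (SD, n = 3 each), a log2 change of 2.41 (SE 0.31). The difference was 3.11 in set A and 2.04 in set B on the log2 scale, and Igf2 was no longer past the threshold without KO1.

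H19 encodes a long non-coding RNA that is not translated. Its levels were 493.6, 252.8 and 276.9 in WT and 45.3, 25.8 and 57.0 in KO. WT1, the lowest for Igf2, was the highest for H19. The mean was 7.99-fold lower in KO, at 42.7 ± 15.7 against 341.1 ± 132.6 (SD, n = 3 each), a log2 change of -2.97 (SE 0.37). The change was -3.26 in set A and -3.31 in set B.

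Side by side, the pair changed order. In WT H19 exceeded Igf2 by 21.8, 5.9 and 5.26 times in WT1, WT2 and WT3. In KO Igf2 exceeded H19 by 4.94, 7.7 and 3.27 times. The difference log2(Igf2 + 1) minus log2(H19 + 1) was -3.10 ± 1.12 in WT and 2.29 ± 0.60 in KO (SD, n = 3 each), 5.39 apart. The sum of both genes was 516.3, 295.6 and 329.6 in WT and 268.9, 224.3 and 243.3 in KO. The summed level was highest in WT1, and the groups did not overlap. Its means, 380.5 ± 118.8 and 245.5 ± 22.3 (SD, n = 3 each), lay closer together in fold than those of either gene.

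Each of these genes also carries a microRNA gene, shown here because the host transcripts differed in opposite directions. H19 holds Mir675 in an exon and Igf2 holds Mir483 in an intron, and in the sequences below, 5′ to 3′ from RefSeq with GRCm38.p6 coordinates on the minus strand, capitals mark the seed (bases 2 to 8). The mature microRNAs themselves were not measured, and the 4 seeds differ from each other.
miR-675-5p, chr7:142577112-142577133: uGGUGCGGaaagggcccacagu
miR-675-3p, chr7:142577078-142577099: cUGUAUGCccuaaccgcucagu
miR-483-5p, chr7:142654968-142654989: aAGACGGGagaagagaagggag
miR-483-3p, chr7:142654932-142654952: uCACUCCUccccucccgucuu

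Dlk1 and Meg3 are a comparable pair on chromosome 12, with Dlk1 made from the paternal copy and the long non-coding RNA Meg3 from the maternal copy. Dlk1 encodes a transmembrane protein related to Notch ligands that marks fetal liver progenitors and holds back the maturation of fat cells. It had 6.7, 3.4 and 5.4 normalized counts in WT and 132.2, 129.8 and 154.3 in KO. The WT values rest on 15 reads in all and the KO values on 427. The mean was 26.9-fold higher in KO, at 138.7 ± 13.5 against 5.2 ± 1.7 (SD, n = 3 each), a log2 change of 4.54 (SE 0.28), with 4.23 in set A and 4.62 in set B.

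Meg3 had 0, 3.4 and 0 normalized counts in WT1, WT2 and WT3 and 69.7, 50.7 and 89.0 in KO1, KO2 and KO3. Only WT2 held any Meg3 reads in its group, 4 in all, against 211 in KO. A count of 0 reads allows up to 4 normalized counts in WT1 and 2.72 in WT3 (3 reads, counting error only). The group means were 1.1 ± 1.9 and 69.8 ± 19.1 (SD, n = 3 each), and the ratio of reads, on the library scale, was 51.6 with an exact 95% interval of 19.8 to 191 that covers counting error only. The log2 change of 5.40 (SE 0.63) depends on the pseudocount at such low levels. It was 6.32 in set A and 4.63 in set B.

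This pair, unlike Igf2 and H19, was higher on both sides in KO. Dlk1 exceeded Meg3 by 1.9, 2.56 and 1.73 times in KO1, KO2 and KO3. The difference log2(Dlk1 + 1) minus log2(Meg3 + 1) was 1.01 ± 0.29 in KO. In WT it was 2.94, 0.00 and 2.69, a spread (SD 1.63) that rests on 0 to 4 Meg3 reads a library. The difference between the labels was -0.86 and turned to 0.21 with a pseudocount of 5. The sum of the pair was 6.7, 6.7 and 5.4 against 201.9, 180.5 and 243.3.

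**Figure D2:**
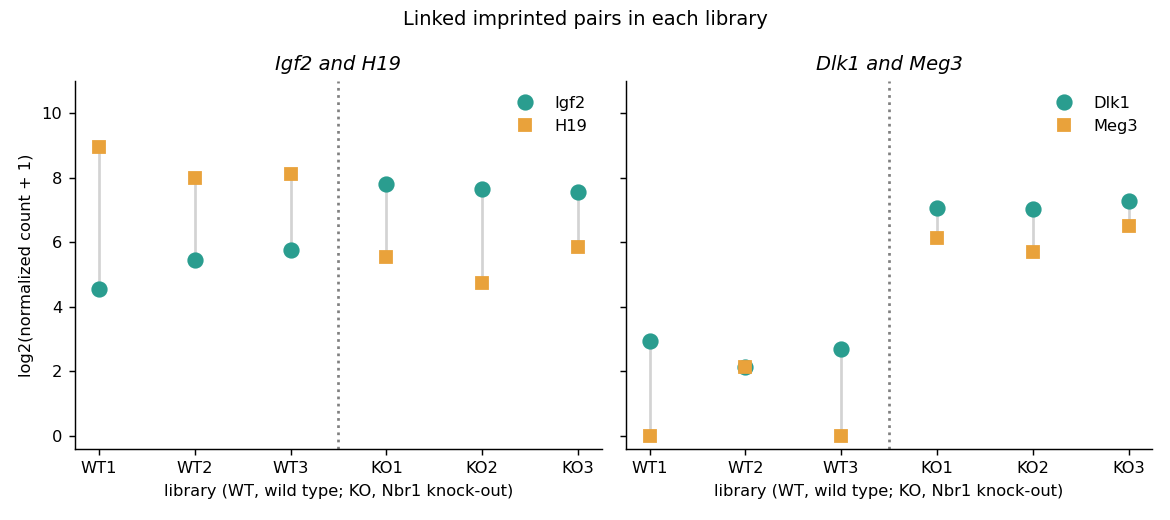
Levels of the 2 linked pairs in each library on the log2(normalized count + 1) scale, with a line joining both genes of 1 library's pair; Igf2 and H19 are on the left and Dlk1 and Meg3 on the right. H19 lies above Igf2 in the WT libraries and below it in the KO libraries, while Dlk1 and Meg3 are both higher in the KO libraries.

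The start regions of Dlk1 and Meg3 are shown because the pair was near the floor in one label and well above it in the other. Each window runs from 250 bases before to 50 after the annotated start (RefSeq, GRCm38.p6), is on the plus strand, and has any match to TGCCGC or its reverse complement GCGGCA in capitals. TGCCGC is the motif that the imprint-keeping protein ZFP57 binds when methylated, and its letters overlap with no other motif searched.
Dlk1, chr12:109452573-109452872: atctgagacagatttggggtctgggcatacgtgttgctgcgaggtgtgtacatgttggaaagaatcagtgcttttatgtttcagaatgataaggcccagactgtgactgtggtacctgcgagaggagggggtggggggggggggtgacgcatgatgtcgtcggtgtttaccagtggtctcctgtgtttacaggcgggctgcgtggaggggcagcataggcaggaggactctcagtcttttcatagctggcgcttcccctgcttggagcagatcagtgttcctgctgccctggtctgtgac
Meg3, chr12:109540746-109541045: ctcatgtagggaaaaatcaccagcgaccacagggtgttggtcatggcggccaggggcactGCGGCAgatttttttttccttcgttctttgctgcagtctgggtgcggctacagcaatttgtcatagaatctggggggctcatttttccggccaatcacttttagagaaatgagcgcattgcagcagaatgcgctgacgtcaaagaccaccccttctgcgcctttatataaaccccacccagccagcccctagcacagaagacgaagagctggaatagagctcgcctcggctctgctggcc
The Dlk1 window held 9 CpG dinucleotides and no match, and the Meg3 window shown, the first of 2, 13 CpG and a match. The other Meg3 window, chr12:109545148-109545447, held 1 CpG and no match. Of all 32851 windows, 11.6% hold the motif and the median CpG count is 7. Meg3 also carries Mir770 in an annotated exon on the plus strand, with the seeds in capitals as above and the microRNAs not measured.
miR-770-5p, chr12:109563710-109563731: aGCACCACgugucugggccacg
miR-770-3p, chr12:109563744-109563765: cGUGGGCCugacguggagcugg

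Grb10 encodes an adaptor that binds insulin and IGF receptors and dampens their signal. It had the largest difference in level among the 10 genes, with 13.3, 15.1 and 25.4 normalized counts in WT and 654.5, 676.4 and 733.3 in KO. Each group was tight next to the gap between them. The mean was 38.3-fold higher in KO, at 688.1 ± 40.7 against 18.0 ± 6.5 (SD, n = 3 each), a log2 change of 5.23 (SE 0.25). Counting Grb10 itself, 16 of the 10540 tested genes had an absolute log2 change this large. The change was 5.60 in set A and 5.04 in set B.

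Plagl1 encodes a zinc finger transcription factor that can arrest the cell cycle and binds GC-rich sites, among them sites at other imprinted genes. Its levels were 248.2, 386.3 and 468.5 in WT and 760.4, 769.2 and 873.3 in KO. WT1 was again the lowest. Plagl1 had the smallest fold of the 10, 2.18, but the highest level in both labels, at 801.0 ± 62.8 against 367.7 ± 111.4 (SD, n = 3 each). On the log2 scale the difference of 1.17 (SE 0.24) was 1.71 in set A and 0.85 in set B. Plagl1 was not past the threshold with no variance trend, nor without WT2 or any 1 KO library.

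Cdkn1c encodes p57, an inhibitor of cyclin-dependent kinases, and lies in the same stretch of chromosome 7 as Igf2 and H19 under a separate control region. It was a low gene, with 9.3, 9.2 and 7.3 normalized counts in WT and 32.6, 24.1 and 26.1 in KO, from 26 and 86 reads. The groups were apart by more than their spread, at 8.6 ± 1.2 against 27.6 ± 4.5 (SD, n = 3 each), 3.2-fold. Its log2 change was 1.57 (SE 0.27), with 1.55 in set A and 1.45 in set B. The gene was past the threshold without WT1 but not without any 1 of the other 5 libraries.

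A window of Grb10 and that of Plagl1 are shown as the start regions of the most abundant members in KO, with the same capitals; the Grb10 window is on the minus strand and the Plagl1 window on the plus strand.
Grb10, chr11:12037371-12037670: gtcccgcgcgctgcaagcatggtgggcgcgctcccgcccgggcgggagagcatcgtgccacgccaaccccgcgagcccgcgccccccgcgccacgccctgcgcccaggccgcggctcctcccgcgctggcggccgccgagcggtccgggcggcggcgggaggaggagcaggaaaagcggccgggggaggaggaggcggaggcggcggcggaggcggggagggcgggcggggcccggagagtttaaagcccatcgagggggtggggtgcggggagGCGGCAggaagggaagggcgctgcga
Plagl1, chr10:13090582-13090881: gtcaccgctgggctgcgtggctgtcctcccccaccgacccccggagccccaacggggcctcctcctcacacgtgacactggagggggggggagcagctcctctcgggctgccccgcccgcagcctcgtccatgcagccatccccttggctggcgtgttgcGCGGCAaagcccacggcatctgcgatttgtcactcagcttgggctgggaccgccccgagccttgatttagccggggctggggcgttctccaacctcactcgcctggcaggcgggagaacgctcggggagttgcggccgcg
The Grb10 window shown, the first of 2, held 45 CpG dinucleotides, a number reached by 1.93% of all windows. The other Grb10 window, chr11:12027922-12028221, held 9 CpG, reached by 45.8%, and no match. The Plagl1 window held 26, reached by 16.9%. Of the 10 genes, 8 had windows, 17 in all. The ZFP57 motif was in 6 windows of 5 genes (Mest, Igf2, Plagl1, Grb10 and Meg3) and in 11.6% of all windows. The Mest windows among them overlap almost wholly (chr6:30737800-30738099 and chr6:30737803-30738102) and hold the same matches. The letters GGGGCCCC, a core searched for Plagl1 that reads the same on both strands, were in 0 of the 17 windows and in 1.08% of all windows. These are matches of letters only.

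Ndn encodes necdin, a growth-restraining protein of the MAGE family made from the paternal copy. It had 28.0, 46.2 and 30.0 normalized counts in WT and 103.2, 92.0 and 85.4 in KO. WT2 was the highest of its group and still below each KO library. The mean was 2.69-fold higher in KO, at 93.5 ± 9.0 against 34.7 ± 10.0 (SD, n = 3 each), a log2 change of 1.43 (SE 0.24). It was not past the threshold without WT3 or any 1 KO library.

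Slc38a4 encodes a neutral amino acid transporter that is abundant in liver and placenta. With 6.7, 5.0 and 5.4 normalized counts in WT and 37.1, 37.0 and 35.6 in KO, it had the smallest SD of the 10 genes in both labels, from 17 and 114 reads. The mean was 6.39-fold higher in KO, at 36.6 ± 0.8 against 5.7 ± 0.8 (SD, n = 3 each), a log2 change of 2.49 (SE 0.25), with 2.28 in set A and 2.60 in set B.

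Mest encodes a protein with a hydrolase fold and is a common marker of mesoderm. Its WT libraries were uneven, at 17.3, 84.0 and 86.3 normalized counts in WT and 10.0, 17.2 and 11.9 in KO. WT1 lay next to KO2, at 17.3 against 17.2, and far below the other WT libraries. The mean was 4.81-fold lower in KO, at 13 ± 3.7 against 62.5 ± 39.1 (SD, n = 3 each). Its log2 change was -1.91 (SE 0.63), short of the threshold. It was -0.63 in set A and -2.24 in set B, so its size went with the library sets. Mest holds Mir335 in an intron on the plus strand, whose microRNAs were not measured and whose seeds, in capitals, are shared with none of those above.
miR-335-5p, chr6:30741314-30741336: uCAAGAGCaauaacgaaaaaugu
miR-335-3p, chr6:30741354-30741375: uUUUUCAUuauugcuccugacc

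**Figure D3:**
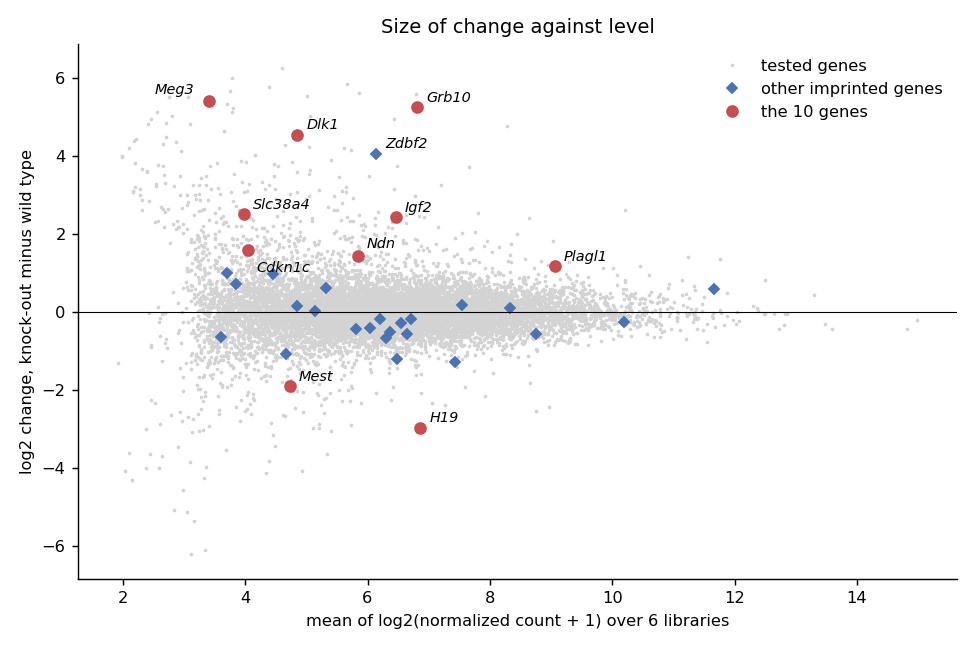
Log2 change of each tested gene, KO over WT, against its mean level, with the 10 imprinted growth genes and the other imprinted genes marked over all 10540 tested genes in grey. Grb10, Meg3 and Dlk1 lie at changes of 5.23, 5.40 and 4.54, H19 and Mest lie below 0, and the other imprinted genes lie mostly within the grey cloud.

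Among themselves, the genes changed rank between the labels. By mean level the WT order was Plagl1, H19, Mest, Igf2, Ndn, Grb10, Cdkn1c, Slc38a4, Dlk1 and Meg3. Neighbours whose ranges over the libraries overlapped were Plagl1 and H19, Mest and Igf2, Igf2 and Ndn, and the last 3 genes in a row. In KO the order was Plagl1, Grb10, Igf2, Dlk1, Ndn, Meg3, H19, Slc38a4, Cdkn1c and Mest. Overlaps there were between Ndn and Meg3, Meg3 and H19, and H19 and Slc38a4. Within each KO library, though, Meg3 was above H19, at 69.7, 50.7 and 89.0 against 45.3, 25.8 and 57.0. Plagl1 was first in both, Grb10 moved from sixth place to second, and H19 from second to seventh.

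The summed level of the 10 genes was 845.9, 848.2 and 957.9 normalized counts in WT and 2068.4, 2020.6 and 2252.2 in KO. The makeup of this sum differed as well. H19 made up 58.4%, 29.8% and 28.9% of it in WT and 2.19%, 1.28% and 2.53% in KO. Grb10 made up 1.58%, 1.78% and 2.65%, against 31.6%, 33.5% and 32.6%. Plagl1 held a share of 29.3%, 45.5% and 48.9% against 36.8%, 38.1% and 38.8%, so its share overlapped between the labels while its level did not.

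**Figure D4:**
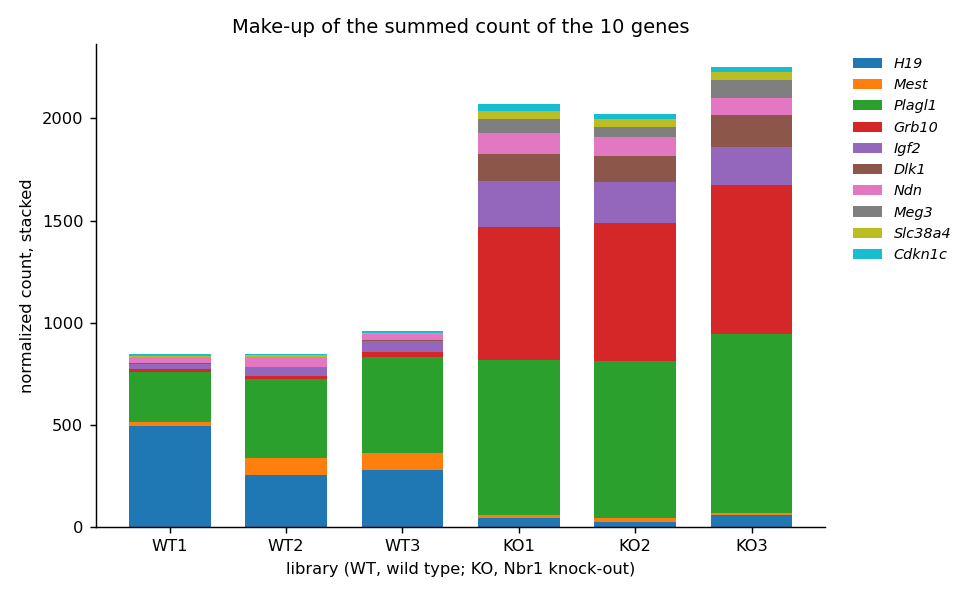
Stacked bars, from 0, of the normalized counts of the 10 imprinted growth genes in each library, 1 colour per gene. The H19 part shrinks from 493.6, 252.8 and 276.9 in the WT bars to 45.3, 25.8 and 57.0 in the KO bars, and the Grb10 part grows to 654.5 and more.

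Profiles most like those of the linked genes were named by the smallest root mean square distance over the 6 libraries between log2(value + 1) profiles, each centred on its own mean. For Igf2 they were Fez1 (0.17), Selenop (0.19) and Ncam1 (0.19). For H19 they were Apoe (0.18), Pdlim4 (0.25) and Snhg11 (0.25). For Dlk1 they were Mtus2 (0.18), Tshz2 (0.20) and Lmod1 (0.27). For Meg3 they were Plcxd3 (0.46), Uty (0.54) and Aff3 (0.61), farther away than the neighbours of the other 3 genes. Uty lies on the Y chromosome and had 0, 0.8 and 0 normalized counts in WT and 40.7, 28.4 and 33.2 in KO. Another Y-linked gene, Ddx3y, looked at after these values were seen, was present in all libraries, at 138.8 to 183.9 against 173.8 to 212.3.

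Imprinted genes outside the 10 were spread over both directions. Of 59 named in a textbook list, 34 were analysed, 24 passed the filter, and 3 of these (12.5%, background 6.92%) passed the limma test, 1 higher and 2 lower. Their median log2 change was -0.23, and 10 of 24 were above 0. Zdbf2, a paternally expressed gene, had 20.0, 15.1 and 14.5 normalized counts in WT and 290.6, 280.2 and 287.2 in KO. It rose 17.3-fold (16.6 ± 3.0 to 286.0 ± 5.3, log2 change 4.04, SE 0.19, limma adjusted p = 0.000337) and passed in 17 of 17 alternatives.

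Impact, which encodes an inhibitor of the stress kinase GCN2, had 197.5, 288.1 and 345.0 against 93.2, 129.8 and 108.0. It fell 2.51-fold (log2 change -1.30, SE 0.24, limma adjusted p = 0.0259), and the call was lost without any 1 library other than WT1 (limma adjusted p from 0.0587 to 0.136). Ddc, which encodes an aromatic amino acid decarboxylase, is the neighbour of Grb10 on chromosome 11. It had 168.1, 121.8 and 121.7 against 55.2, 43.8 and 79.5 and fell 2.3-fold (log2 change -1.22, SE 0.27, limma adjusted p = 0.0431), while Grb10 was 38.3-fold higher. The call of Ddc was lost in 9 of 17 alternatives, among them each left-out library but WT1 (limma adjusted p from 0.0582 to 0.188).

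Other neighbours in the imprinted clusters did not pass the test. Near Cdkn1c, the non-coding RNA Kcnq1ot1 had 113.4, 86.5 and 179.8 against 79.7, 98.8 and 66.4 (log2 change -0.58, limma adjusted p = 0.324), and Nap1l4 had 472.3, 241.9 and 265.1 against 364.8, 246.7 and 401.1 (log2 change 0.08, limma adjusted p = 0.912). Cd81, of the same cluster, was below the filter at 4.0, 5.0 and 3.6 against 4.5, 3.4 and 0. Beyond Meg3, Rtl1 was below the filter, at 5.3, 0.8 and 2.7 against 4.5, 1.7 and 7.1, with groups that overlapped. In the Ndn region, Ube3a, Mkrn3, Peg12 and Snhg14 had lower means in KO, the opposite of Ndn, and Atp10a had a higher one. Atp10a, added after its values were seen, had 16.0, 16.0 and 12.7 against 34.4, 29.2 and 26.1 (log2 change 0.96, limma adjusted p = 0.0687). Ube3a had 453.6, 547.6 and 587.4 against 337.6, 378.2 and 351.2 (log2 change -0.57, limma adjusted p = 0.0705), and it passed without WT1 (adjusted p = 0.00872, in a range of 0.00852 to 0.293 over the alternatives). Mkrn3, Peg12 and Snhg14, all below the filter, had 16.0, 6.7 and 9.1 against 6.3, 4.3 and 2.4, then 20.0, 10.9 and 10.0 against 5.4, 5.2 and 8.3, then 6.7, 4.2 and 4.5 against 0.9, 1.7 and 3.6. Copg2, which overlaps Mest on the opposite strand, had 114.7, 99.9 and 95.3 against 81.5, 85.1 and 84.2 (log2 change -0.30, limma adjusted p = 0.333). The other listed neighbours had no row among those deposited, so their levels are not known here. Near Igf2, H19 and Cdkn1c these were Phlda2, Slc22a18, Kcnq1, Ascl2, Tspan32, Ins2 and Th. Near Dlk1 and Meg3 they were Rian, Mirg, Dio3 and Begain, near Ndn Magel2, Snrpn and Snurf, and near Mest Klf14.

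Among 18 tested genes through which IGF2 acts or is held, 4 changed (22.2%, background 6.92%), 2 in each direction, with a median log2 change of 0.21. Igf1, the related growth factor gene, rose 2.38-fold, from 40.0, 31.1 and 34.5 to 78.8, 83.4 and 89.0 (log2 change 1.23, SE 0.19, limma adjusted p = 0.0121). Irs1, which encodes a docking protein of the insulin and IGF1 receptors, rose 2.65-fold (22.6 ± 4.8 to 60.0 ± 16.6, limma adjusted p = 0.0362). Igfbp6, whose product binds IGF2 with high affinity, fell 4.01-fold, from 154.8, 89.0 and 77.2 to 28.1, 22.3 and 29.7 (log2 change -1.91, SE 0.30, limma adjusted p = 0.0137). Igf2bp1, whose product binds Igf2 and H19 RNA, fell 1.64-fold (338.5 ± 38.8 to 206.8 ± 23.1, limma adjusted p = 0.0449). Without any 1 library other than WT1, the calls of Igf1, Irs1 and Igf2bp1 were lost (limma adjusted p up to 0.0792, 0.12 and 0.199). That of Igfbp6 was lost without any 1 KO library (limma adjusted p up to 0.0771). Igf2bp1 also lost its call with a mean of at least 50, quantile normalization, no variance trend or the replicate block (limma adjusted p from 0.0516 to 0.0853).

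The receptors did not pass. Igf1r, the signalling receptor of IGF1 and IGF2, had 226.4 ± 46.8 and 233.3 ± 44.1 normalized counts (SD, n = 3 each; log2 change 0.05, limma adjusted p = 0.93). Its sign turned without WT1 or KO2. Igf2r, an imprinted receptor that clears IGF2, had 37.4, 167.1 and 213.4 against 72.4, 238.1 and 52.2 (log2 change -0.19, SE 0.79, limma adjusted p = 0.925). Its high libraries were those of set B in both labels, and its sign also turned with some left-out libraries. Of 11 tested genes listed as regulators of imprints, 0 rose and 1 fell (9.09%, background 6.92%). That gene was Tet2, which encodes an enzyme that oxidises methylcytosine, with 78.7, 70.5 and 91.7 against 28.1, 43.8 and 20.2 (log2 change -1.42, SE 0.31, limma adjusted p = 0.0409). The call of Tet2 was lost without WT2 or WT3 or KO1 or KO3 (adjusted p from 0.11 to 0.179).

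**Figure D5:**
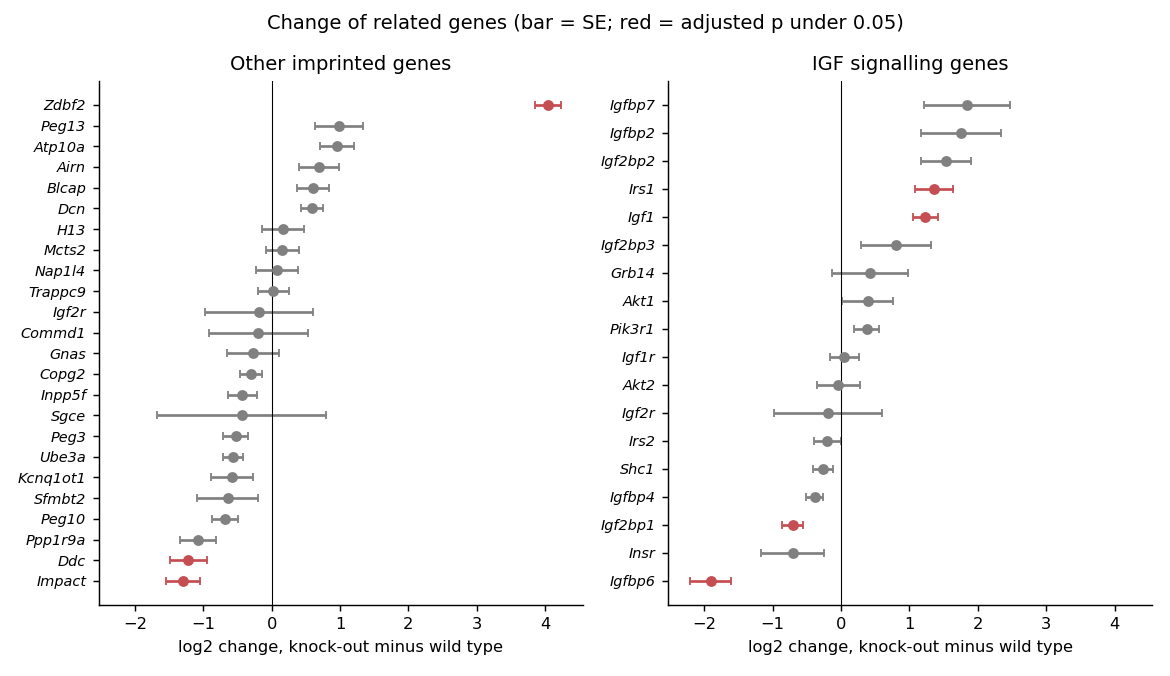
Log2 change, KO minus WT, with its SE (bars) for the tested genes of the other imprinted list (left, 24 genes) and of the IGF list (right, 18 genes), red where the gene passed the limma test over all genes (adjusted p under 0.05). Zdbf2 at 4.04 stands apart at the top of the left panel, and Igfbp6 at -1.91 is the lowest gene of the right panel.

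Markers of other liver cells moved with these genes in part. Of 7 markers of hepatoblasts and cholangiocytes, cells in which Dlk1, Igf2 and H19 are also known to be made, 5 were analysed and 4 tested. Sox9, Gpc3 and Cdh1 rose (3 of 4, background 4.67% higher), Cdh1 not without KO1 (limma adjusted p = 0.0607) or KO3 (0.0527). Krt19, the fourth, had 50.7, 50.4 and 47.2 against 37.1, 31.8 and 32.0 (log2 change -0.54, limma adjusted p = 0.148). The summed level of the list was 76.4 to 85.4 in WT and 659.9 to 694.2 in KO. Most of the KO sum was Sox9 (15.3 ± 5.8 to 478.6 ± 15.3), and the defining markers Afp and Epcam had no row among those deposited. In WT most of the sum was Krt19 and Sox9, which left too little for both Gpc3 and Cdh1 to reach the filter there. So Gpc3 or Cdh1, or both, entered the test only through KO. Smooth muscle and pericyte markers, 4 of 7 analysed, had sums of 1.8 to 5.3 against 49.8 to 66.4. Cnn1 and Lmod1 passed the threshold upward (2 of 2 tested, background 4.67%). Both entered the test only through KO, and Lmod1 had 0 reads in WT. Portal fibroblast markers, 5 of 6 analysed, had sums of 592.9 to 888.5 against 832.8 to 889.8. Thy1 and Eln passed the threshold upward (2 of 4 tested, background 4.67%). Eln did not pass without WT3 or any 1 KO library (limma adjusted p up to 0.102). Of the other tested members of that list, Fbln2 had a log2 change of 0.50 and Cd34 of -0.74 (limma adjusted p = 0.121 and 0.186). Mesothelial markers, 5 of 6 analysed, had sums of 888.5 to 982.6 against 535.9 to 733.1. Upk3b passed the threshold downward (1 of 5 tested, background 2.25%), though not without WT3, KO1 or KO3 (limma adjusted p = 0.051, 0.0764 and 0.0598). Msln went the other way, at 16.0, 9.2 and 17.3 against 26.3, 23.2 and 19 (log2 change 0.68, limma adjusted p = 0.268). Hepatocyte markers, 5 of 10 analysed, had sums of 43.7 to 54.5 against 15.5 to 46.3, and macrophage markers, 2 of 7 analysed, 6.4 to 14.7 against 6.9 to 14.2. Of 6 endothelial markers only Kdr was analysed, at 3.4 to 5.4 against 6.0 to 8.3, and of 4 lymphocyte markers 0. The part of these cell types in the values of the 10 genes was not tested.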

How the data were processed

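Per the file headers, the columns of the table are libraries and its rows gene symbols. Its values are a normalized count signal deposited by the authors. The submitters' processing notes name DESeq2, with no version, and the build GRCm39, while the aligner, the annotation and the use of strand or molecular identifiers in counting are not given in the sources used here. Per the labels' protocols, libraries were made from 200 ng of RNA and read from the 3' end, 75 bases, single end. Every value was a whole multiple of the value of 1 read (100%, tolerance 0.01), so whole reads were recovered, and the lowest sum of a gene was 9 reads.

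Genes with at least 10 normalized counts in at least 3 libraries entered the test (10540) with limma 3.58.1 in R 4.3.3 (variance trend, two-sided) on log2(value + 1) and Benjamini-Hochberg adjustment at 0.05 over all of them. Log2 changes are on that scale, which understates low genes, and folds are ratios of group means. The script was tested on simulated data. On the recovered reads, edgeR 4.0.16 (quasi-likelihood) called 766 genes and DESeq2 1.42.0 called 951, against 729. The labels say biological replicates but not whether these came from separate animals, so p-values measure the spread between these libraries, which may be technical. Correlations of deviations between libraries of the same number were 0.45, 0.70 and -0.62, so the numbers were not taken to pair the libraries.

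The 10 genes and all lists were chosen with earlier results of these data known. Named besides the 10 are the listed imprinted, IGF and regulator genes past the threshold, neighbours in the same imprinted clusters, both IGF receptors and, for the linked genes, the 3 nearest profiles. Chromosomes, overlaps and sequences come from GRCm38.p6 tables and no position was converted. With strand use unknown, reads of Mest and Copg2, of Igf2 and Igf2os, and of Cdkn1c, Meg3 and Ndn and their opposite-strand transcripts (Gm44732, Gm26906 and Gm32061) cannot be told apart. Alternatives were other pseudocounts, filters and scalings, other tools, no variance trend, a replicate block, a library set term, fits inside each set, and each library left out.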

Additional observations from a re-analysis of the deposited data

How the results depend on the processing

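The 10 genes were chosen by this contrast and their groups do not overlap, so their keeping 1 direction in every alternative is no sign of stability, and the counts of calls among them are a description. The number past the threshold was 8 with the replicate block, which lost Cdkn1c, and 8 with no variance trend, which lost Plagl1. It was 10 with DESeq2 or a term for the library sets. With 1 library left out it ranged from 5 (without KO1) to 10 (without WT1). Over all genes the count of 729 became 380 with a mean of at least 50, 476 with the replicate block and 2791 with the set term, and ranged from 200 to 2228 with 1 library left out (2228 without WT1, then 328 and 319 without WT2 or WT3 and 200, 338 and 231 without KO1, KO2 or KO3). The 3 other imprinted genes called became 5 with DESeq2 and 8 with the set term (9 without WT1 and 1 without any other library). The 4 IGF genes became 2 with a mean of at least 50 and 10 with the set term (7 without WT1, 1 without WT2 or WT3, 0 without KO1, KO2 or KO3, with 8 at an unadjusted p under 0.05 in the main test). The 1 regulator became 2 with no filter or the set term and 0 with a mean of at least 50 or the replicate block. That count was 3 without WT1, 1 without KO2 and 0 without any other library. Of the 11 regulators, 2 had an unadjusted p under 0.05 in the main limma test. So did 11 of the 24 other imprinted genes and 2379 of all 10540 tested genes, the background for these unadjusted counts.

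Within set A the log2 changes were 3.11 for Igf2, 6.32 for Meg3, 5.60 for Grb10, 1.71 for Plagl1, -0.63 for Mest and 2.28 for Slc38a4. A pseudocount of 5 gave 1.25 for Cdkn1c, 3.83 for Dlk1, 3.62 for Meg3 and 1.96 for Slc38a4. Slc38a4 was 2.28 with quantile normalization and 2.69 with edgeR or DESeq2. Leaving out 1 library, the ranges were 2.07 to 2.66 for Igf2, -3.21 to -2.66 for H19, 1.45 to 1.66 for Cdkn1c, 4.31 to 4.72 for Dlk1, 5.05 to 6.11 for Meg3, 5.06 to 5.50 for Grb10, 0.91 to 1.37 for Plagl1, -2.65 to -1.53 for Mest, 1.30 to 1.65 for Ndn and 2.42 to 2.59 for Slc38a4. Signs that turned were the Dlk1 to Meg3 difference with a pseudocount of 5 (0.21), Igf1r (-0.12 without WT1 and -0.10 without KO2, in a range up to 0.18), Igf2r (0.52 with the set term, and 0.11, 0.28, 0.02 and 0.25 with a library left out, in a range from -0.96) and Nap1l4 (-0.17 with the set term, and -0.10, -0.03 and -0.06 with a library left out, in a range up to 0.38). The cause of these changes was not tested. Within a set 1 label has 1 library, so no p is given there. Under 20 reads in WT limits the folds of Dlk1, Meg3 and Slc38a4.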

Other observations

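Among imprinted genes below the filter, Asb4, picked after its values were seen, had 0 reads in WT and 33 in KO, at 11.8, 11.2 and 8.3 normalized counts. This is 10.8-fold higher if WT is set to the floor of 3 group reads, a value that leaves out the counting error in KO. Also picked after their values were seen were Pappa and Igf2bp2. Pappa, which encodes a protease that frees IGF from its binding proteins, had 0 reads against 14, 4.56-fold higher against the same floor and with the same limit. Igf2bp2, a relative of Igf2bp1 that also binds Igf2 RNA, had 76.0, 30.2 and 33.6 normalized counts in WT and 114.1, 113.4 and 151.9 in KO (log2 change 1.53, SE 0.37), and missed the limma threshold (adjusted p = 0.0566, from 0.00126 to 0.217 over the alternatives).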
